A study of Homo sapiens with 12 samples.

Results

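The last interval of a TGFβ time course in A549 cells was examined, from 48 h to 96 h of exposure. A549 is a lung adenocarcinoma cell line. Its members were chosen by label and by cell limits alone: the 96 h and the 48 h libraries, 4 of the 12 in the series, and in them the wells that held 100 to 40000 UMIs (unique molecular identifiers, each counting 1 captured mRNA), 2000 to 7000 detected genes and at most 35% mitochondrial UMIs. These limits kept 398 of the 1871 kept cells of the series, 118 at 96 h and 280 at 48 h. Every culture was grown in DMEM with 10% fetal bovine serum. The cultures of 96 h and of 48 h received 4 ng/mL TGFβ for those times, with a change of TGFβ medium after every 2 days. Dead cells were gated out with propidium iodide, each library came from 384 wells that received a single sorted cell each, and the 3' ends of their mRNAs were sequenced by CEL-Seq2. The earlier times were 0 h, 0.5 h, 12 h and 24 h, with 2 libraries at each of the 6 times. No culture grown for 48 h or 96 h without TGFβ was analysed here, so longer exposure cannot be told apart from longer culture, denser cells or the time since the medium was renewed.

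TGFβ binds paired receptor kinases at the cell surface, which phosphorylate SMAD proteins that enter the nucleus and regulate transcription. In lung epithelial cells this is known to drive epithelial-mesenchymal transition (EMT), in which junctions between cells are lost, stress fibers form, and matrix proteins, N-cadherin and vimentin are made. TGFβ also slows the division of many epithelial cells.

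The 96 h libraries held fewer kept cells than the 48 h libraries. At 96 h, 54 and 64 of 384 wells were kept (14.1% and 16.7%), against 131 and 149 at 48 h (34.1% and 38.8%). Wells with under 1000 detected genes numbered 290 and 311 at 96 h, against 197 and 223 at 48 h. Wells above the upper limits on UMIs or genes numbered 20 and 6 at 96 h, against 14 and 0 at 48 h. The summed protein-coding counts were 1264044 and 1501661 UMIs at 96 h and 3095497 and 1950508 UMIs at 48 h. Kept cells had a median of 25995 and 25668 UMIs and 5055 and 4770 genes at 96 h, against 26321 and 14137 UMIs and 4984 and 3551 genes at 48 h. The shallow library was thus 48 h replicate 2. Median mitochondrial shares were 20.6% and 21.1% at 96 h and 24.1% and 20.3% at 48 h. Replicate 1 and replicate 2 of each time used different sets of 384 cell barcodes, with 0 shared, so replicate number and barcode set cannot be told apart. The labels do not say whether the 2 libraries of a time came from separate cultures, so the p-values below measure only the spread between these libraries, which may be technical.

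Of 28 epithelial markers 17 were abundant enough to test, and the list summed to 4683 and 4675 CPM at 96 h and 6344 and 5356 CPM at 48 h. KRT7, a keratin of simple epithelia, was the most abundant, at 3235 and 3133 CPM at 96 h and 4774 and 3624 CPM at 48 h. KRT8, a simple epithelial keratin, was at 632 and 585 CPM (counts scaled to the same total in each library) at 96 h and 637 and 603 CPM at 48 h, and KRT18, its partner, at 407 and 514 CPM at 96 h and 407 and 697 CPM at 48 h. CDH1 (E-cadherin), the adherens junction protein, held 0 and 2 UMIs at 96 h and 15 and 3 at 48 h, and EPCAM, an epithelial adhesion molecule, 1 and 2 at 96 h and 16 and 12 at 48 h. Both were near the limit of detection. The mesenchymal markers VIM (vimentin) and CDH2 (N-cadherin) were both present. Of 12 fibroblast markers only LUM and COL6A3 were abundant enough to test, with summed levels of 96.5 and 64.6 CPM at 96 h and 18.4 and 79.4 CPM at 48 h, while COL3A1 was at 0 in all 4 libraries. Endothelial markers summed to 9.33 and 16.6 CPM at 96 h and 40.1 and 31.5 CPM at 48 h, from ESAM and EGFL7 among 9, with PECAM1, CDH5 and EMCN at 0. The tested immune marker of 10, CD14, summed to 0.778 and 0 CPM at 96 h and 1.003 and 0.516 CPM at 48 h, and PTPRC, MS4A1 and TYROBP were at 0.

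Which genes still changed after 48 h was asked with the counts summed per library. Of 10465 protein-coding genes tested, 127 passed the threshold between 96 h and 48 h (1.21%), 84 of them higher at 96 h (0.803%) and 43 lower (0.411%), by edgeR's quasi-likelihood test at a Benjamini-Hochberg adjusted p under 0.05. Counts of called members in the lists below are to be read beside these shares. Counts of members above 0 are to be read beside 48.7% of all genes tested. An unadjusted p under 0.05 was reached by 1170 genes. The genes called higher had log2 changes of 0.57 to 4.80 with a median of 1.09, and those called lower of -0.70 to -6.66 with a median of -1.14, beside a median of -0.01 over all genes tested. At least a 2-fold change was seen in 83 of the called genes and at least a 4-fold change in 18. All 127 had 96 h libraries that did not overlap the 48 h libraries, which also held for 19.7% of all tested genes upward and 20.5% downward. A summed count cannot tell fewer expressing cells apart from less mRNA per cell. Each side had 2 libraries, and leaving out a single library reduced the count to 32 without 96 h replicate 1, 35 without 96 h replicate 2, 94 without 48 h replicate 1 and 93 without 48 h replicate 2. Of the 67 called genes covered by the naming rule, 13 passed in each of those 4 fits: LCE3D, IGFBP3, CYP1B1, MSMO1, INSIG1, SOD2, BNIP3, BNIP3L, THBS1, PLOD2, NT5E, TGM2 and DKK1. The called genes SC5D, ENO2, EPAS1, CDKN3, NEK2, COL22A1 and NTS, named below, were not followed singly through those fits.

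The genes that moved late were in part genes that had already responded by 12 h, a comparison with 0 h that shares no library with this interval. Of the 84 genes higher at 96 h than at 48 h, 33 (39.3%) were also called higher at 12 h than at 0 h, 9 (10.7%) were called lower there and 42 neither. Of the 43 lower genes, 12 (27.9%) were lower at 12 h, 9 (20.9%) were higher and 22 were neither. Over all tested genes, 8.46% were called higher at 12 h and 5.83% lower. These shares were not matched for abundance. A mean of 50 CPM at 48 h or 96 h was reached by 57 of the 84 higher and 23 of the 43 lower genes. Of all 10465 tested genes 3075 reached it.

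The 4 genes that mark the interval are LCE3D, IGFBP3, CYP1B1 and LXN. LCE3D, a late cornified envelope protein of skin that cross-links into the outer shell of dying keratinocytes, lies on the minus strand of chromosome 1 (GRCh38, chr1:152579381-152580516, 2 exons). It was at 148 and 296 CPM at 96 h against 11.4 and 8.77 CPM at 48 h. Both 96 h libraries were far above both 48 h libraries, and the log2 change was 4.44 ± 0.34 (SE, edgeR's quasi-likelihood test, adjusted p = 5.28e-06). Its mean level was 0.145 CPM at 0 h, 3.73 CPM at 12 h, 4.47 CPM at 24 h, 10.1 CPM at 48 h and 222 CPM at 96 h. LCE3E, a neighboring member of the same family, was at 32.7 and 25.3 CPM at 96 h and 7.36 and 3.09 CPM at 48 h (log2 change 2.38 ± 0.51, adjusted p = 0.0208). The sequences of the family are much alike, and counts may be split between its members. LCE3E did not pass without 96 h replicate 1, 96 h replicate 2 or 48 h replicate 2, with adjusted p-values of up to 0.229.

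LCE3D mRNA was concentrated in a few cells. At 96 h it held 190 and 445 UMIs, spread over 22 of 54 and 42 of 64 cells, but 2 and 6 cells with at least 10 UMIs each held 83.2% and 84.3% of them. The highest cell had 86 and 220 UMIs in the 96 h libraries, against 9 and 3 UMIs in the 48 h libraries, and no cell of 48 h or of any earlier time reached 10. Without the highest cell of each library the log2 change was 3.94 (adjusted p = 1.14e-06). LCE3E was shared by these cells, which carried 22 of its 42 and 21 of its 38 UMIs at 96 h. Cells with 1 or 2 LCE3D UMIs cannot be read as expressing the gene. After each cell was thinned to 10000 UMIs, 21.2% and 41.3% of cells at 96 h held an LCE3D UMI (unthinned 40.7% and 65.6%), against 5.34% and 5.47% at 48 h (unthinned 9.16% and 7.38%). In the wells of the same libraries with under 1000 detected genes, most of which hold little RNA, the gene made up 0.788 and 2.01 of 10000 UMIs at 96 h, against 1.35 and 2.63 in the kept cells. The 95% exact binomial intervals of the thinned shares were 11.1% to 34.7% and 29.0% to 54.4% at 96 h, and 2.18% to 10.7% and 2.23% to 10.9% at 48 h, and such intervals cover counting error only.

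CYP1B1, a cytochrome P450 that oxidizes estrogens and polycyclic aromatic hydrocarbons and a classic target of the aryl hydrocarbon receptor, lies on the minus strand of chromosome 2 (chr2:38066973-38109902, 3 exons). It was at 73.1 and 45.9 CPM at 96 h and 12.7 and 18.1 CPM at 48 h. The times did not overlap, with a log2 change of 1.97 ± 0.26 (edgeR's quasi-likelihood test, adjusted p = 0.00015). CYP1B1 thereby reversed an earlier direction: its mean was 87.4 CPM at 0 h, 14.1 CPM at 12 h, 17.2 CPM at 24 h, 15.4 CPM at 48 h and 59.5 CPM at 96 h. Its UMIs were uneven as well, with 34 of 94 and 22 of 69 in the highest cell of each 96 h library, against 4 and 4 at most in a cell at 48 h. The LCE3D-rich cells held only 2 and 3 of the 94 and 69 CYP1B1 UMIs. Without the highest cell of each library the log2 change was 1.598 (adjusted p = 0.00361). In cells held to stricter limits (3000 detected genes or more, mitochondrial share up to 20%) it was 0.91 and did not pass (adjusted p = 0.860). The gene was the only called member of the 11 tested among 16 aryl hydrocarbon receptor pathway genes, whose median log2 change was -0.02; the receptor itself, AHR, was at 3.89 and 13.3 CPM at 96 h and 6.69 and 10.3 CPM at 48 h. CYP1B1-AS1 and RMDN2 overlap CYP1B1 on the other strand, and RMDN2-AS1 overlaps it on the same strand. RMDN2 and RMDN2-AS1 overlap its 3' end alone, but the 3' ends of mRNAs are what CEL-Seq2 sequenced. Since the strand setting of the counting is not given in the sources used here, reads of these genes may be mixed. For RMDN2-AS1 no strand setting would separate them.

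**Figure D1:**
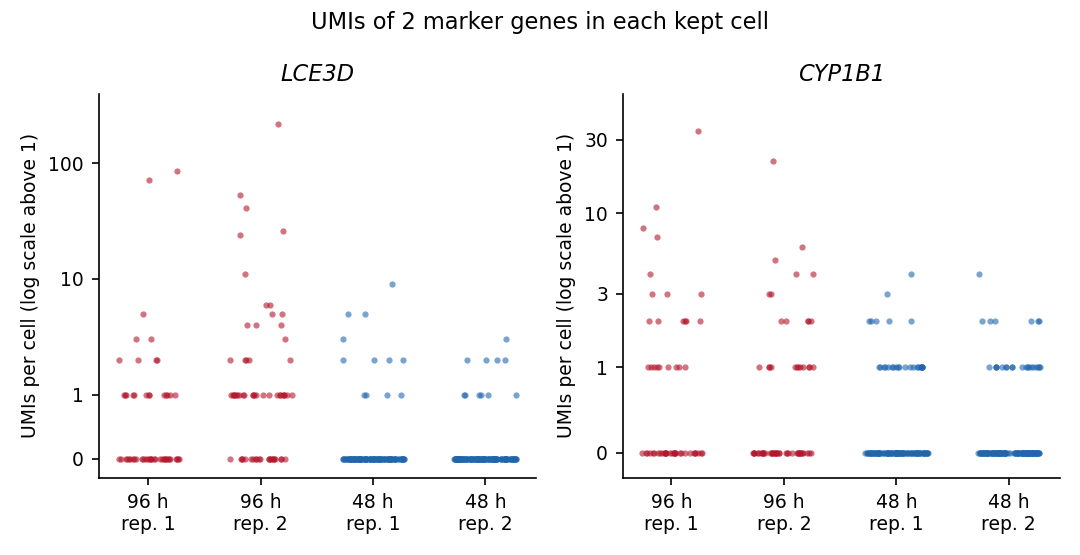
UMIs of LCE3D and CYP1B1 in each kept cell (1 point per cell, spread sideways at random) of the 96 h libraries (red) and the 48 h libraries (blue); the vertical axis is linear from 0 to 1 and logarithmic above 1. Most cells sit at 0, and the highest 96 h cells reach 86 and 220 UMIs of LCE3D and 34 and 22 UMIs of CYP1B1, against at most 9 and 3, and 4 and 4, at 48 h.

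IGFBP3, a secreted protein that binds insulin-like growth factors and is induced by TGFβ in many cell types, lies on the minus strand of chromosome 7 (chr7:45912245-45921874, 5 exons). It was at 275 and 389 CPM at 96 h and 85.9 and 98.5 CPM at 48 h. The log2 change was 1.85 ± 0.19 (edgeR's quasi-likelihood test, adjusted p = 6.54e-06), with no overlap between the times. Its mean had gone the other way earlier, with 176 CPM at 0 h, 84.3 CPM at 12 h, 96.8 CPM at 24 h and 92.2 CPM at 48 h, before 332 CPM at 96 h. IGFBP3 UMIs were unevenly spread over cells. The highest cell held 34 and 86 of them in the 96 h libraries, against 15 and 23 in the 48 h libraries. The top 5 cells held 45.04% and 48.63% of its UMIs at 96 h, against 21.79% and 28.80% at 48 h. Fewer cells were kept at 96 h, which by itself raises such a share. In cells thinned to 10000 UMIs, 65.4% and 71.4% held an IGFBP3 UMI at 96 h and 36.6% and 47.7% at 48 h. The wells with under 1000 genes held it at 2.14 and 3.49 of 10000 UMIs at 96 h, near the 2.51 and 3.45 of the kept cells, so these shares are not counts of expressing cells. LXN (latexin), an inhibitor of carboxypeptidases, lies on the minus strand of chromosome 3 (chr3:158645822-158672648, 6 exons). It was at 23.3 and 18.0 CPM at 96 h, lower than the 77.9 and 62.9 CPM at 48 h. LXN fell by 1.79 on the log2 scale (SE 0.28, edgeR's quasi-likelihood test, adjusted p = 0.000886), after means of 63.8 CPM at 0 h, 55.6 CPM at 12 h and 46.6 CPM at 24 h. Without 96 h replicate 2 its log2 change was -1.61 and did not pass (adjusted p = 0.0637). LXN lies within GFM1, a gene of mitochondrial translation on the other strand, which was at 49.8 and 73.2 CPM at 96 h and 67.2 and 72.7 CPM at 48 h.

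**Figure D2:**
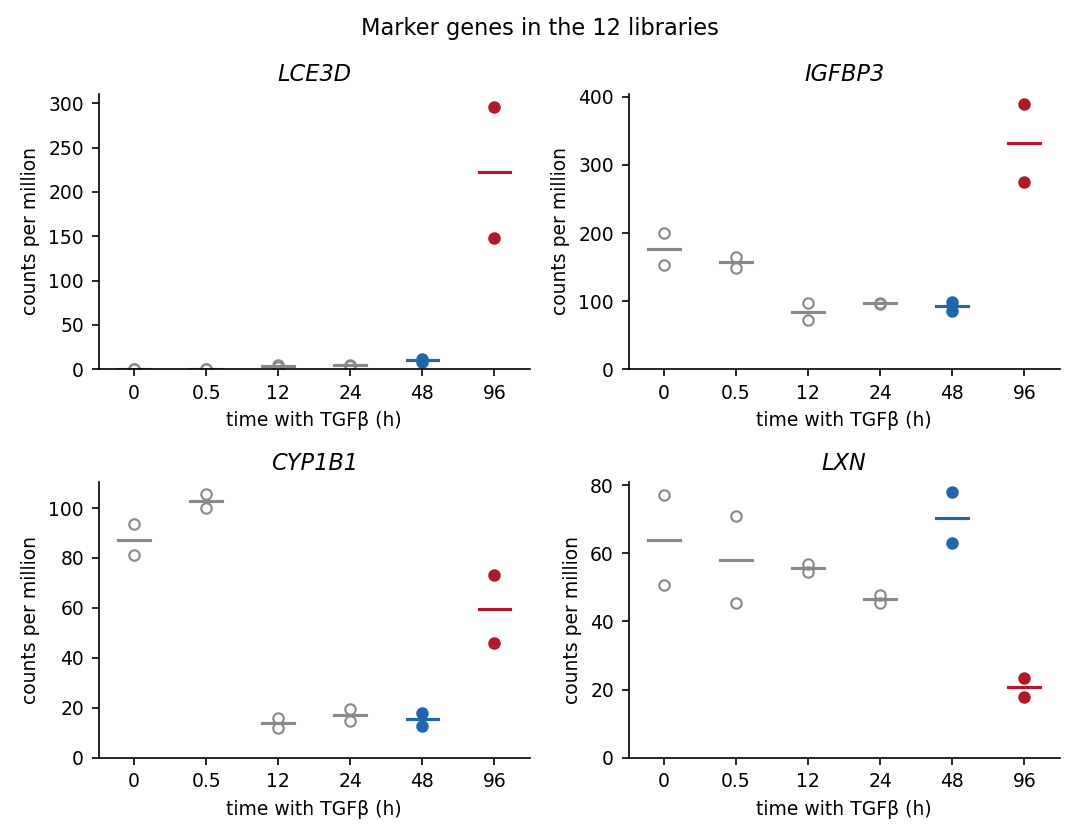
Scaled counts (CPM) of the 4 marker genes in each of the 12 libraries against time with TGFβ in hours (times equally spaced; each point is 1 library, each line the mean of 2). LCE3D rises above 11.4 CPM only at 96 h, IGFBP3 and CYP1B1 are lower at 12 h to 48 h than at 0 h and higher again at 96 h, and LXN is lowest at 96 h.

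Several genes of cholesterol synthesis were called higher at 96 h. Of 37 listed genes of cholesterol and fatty acid synthesis 36 were tested, and 7 were called higher, 0 lower, among them MSMO1, INSIG1, SQLE, IDI1, HMGCS1 and SC5D. The median log2 change of the tested members was 0.45 and 27 of 36 lay above 0, beside 48.7% of all genes tested. MSMO1, a methyl sterol oxidase, was at 241 and 186 CPM at 96 h and 75.9 and 74.8 CPM at 48 h (log2 change 1.498 ± 0.19, adjusted p = 0.000126). INSIG1, which holds the sterol sensor in the endoplasmic reticulum when sterols are plentiful, was at 220.1 and 202 CPM at 96 h and 86.3 and 86.1 CPM at 48 h (1.29 ± 0.17, adjusted p = 0.00015). In both genes the libraries of a time lay close together and well apart from those of the other time. SQLE, squalene epoxidase, was at 168 and 206 CPM at 96 h and 80.3 and 88.7 CPM at 48 h (1.15 ± 0.18, adjusted p = 0.000886). IDI1, isopentenyl diphosphate isomerase, was at 176 and 154 CPM at 96 h and 58.9 and 88.7 CPM at 48 h (1.18 ± 0.21, adjusted p = 0.00388). HMGCS1, which makes the HMG-CoA that feeds the pathway, was at 31.1 and 30.6 CPM at 96 h and 8.36 and 12.4 CPM at 48 h (1.61 ± 0.31, adjusted p = 0.00747). All of these p-values come from edgeR's quasi-likelihood test, Benjamini-Hochberg adjusted. SC5D, a late desaturase, was called with a log2 change of 1.03. In contrast, the transcription factors of the pathway were not called: SREBF2 was at 21.8 and 31.3 CPM at 96 h and 27.4 and 31.98 CPM at 48 h, and SREBF1 at 46.7 and 49.3 CPM at 96 h and 47.8 and 49.5 CPM at 48 h. The fatty acid enzymes FASN and SCD had log2 changes of 0.36 and 0.29 and did not pass. Means at 24 h, 48 h and 96 h were 112, 75.3 and 213 CPM for MSMO1 and 105, 84.5 and 187 CPM for SQLE. They were 99.97, 73.8 and 165 CPM for IDI1 and 25.9, 10.4 and 30.9 CPM for HMGCS1, which was at 36.7 CPM at 0 h. These genes thus dipped at 48 h. INSIG1 did not (78.9 CPM at 24 h, 86.2 CPM at 48 h), nor did the list sum (3401 and 3190 CPM at 24 h, 4534 and 4084 CPM at 48 h). MSMO1 and INSIG1 passed without any single library, while SQLE did not pass without 96 h replicate 2 (0.99, adjusted p = 0.0526), IDI1 without 96 h replicate 1 or 48 h replicate 1, and HMGCS1 without 96 h replicate 1, 96 h replicate 2 or 48 h replicate 1.

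The amount of these mRNAs was also compared by cell. With every cell thinned to 10000 UMIs, the listed cholesterol and fatty acid genes made up a median of 49.5 and 43 UMIs per cell at 96 h, against 37 and 34 at 48 h. The 10th percentile of cells was 33.1 and 28.2 at 96 h, against 27 and 24.7 at 48 h, and the 90th percentile 84.6 and 67 at 96 h and 54 and 49 at 48 h. MSMO1 was held by 84.6% and 76.2% of thinned cells at 96 h and by 49.6% and 51.6% at 48 h. The wells with under 1000 genes held MSMO1 at 4.28 and 2.90 of 10000 UMIs at 96 h, more than the 2.203 and 1.648 of the kept cells, so the part of free RNA in these shares was not tested.

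Some genes of hypoxia and glycolysis were called higher at 96 h. Of 36 listed genes 29 were tested, and 6 were called higher, 0 lower: BNIP3, BNIP3L, P4HA1, EGLN3, PGK1 and ENO2. The median log2 change was 0.60 and 26 of 29 lay above 0. Over all genes tested, 0.803% were called higher and 48.7% lay above 0. BNIP3, which marks mitochondria for removal, was at 237 and 273 CPM at 96 h and 112 and 103 CPM at 48 h (log2 change 1.24 ± 0.16, adjusted p = 0.000103). Its relative BNIP3L was at 228 and 225 CPM at 96 h and 93.6 and 109 CPM at 48 h (1.17 ± 0.18, adjusted p = 0.000803). Both were separated by time in every library and passed without any of the 4 libraries. BNIP3 had been called lower at 12 h than at 0 h. EGLN3, a prolyl hydroxylase that targets HIF for degradation, was at 18.7 and 15.3 CPM at 96 h and 5.68 and 4.64 CPM at 48 h (1.68 ± 0.34, adjusted p = 0.0112). PGK1, the glycolytic phosphoglycerate kinase, was at 1168 and 1056 CPM at 96 h and 732 and 629 CPM at 48 h (0.71 ± 0.15, adjusted p = 0.0179). The p-values come from edgeR's quasi-likelihood test, Benjamini-Hochberg adjusted. ENO2, an enolase, had a log2 change of 0.99, and EPAS1, which encodes HIF-2α, was not on the list and is named after its values were seen, was called with 0.87. The glucose transporter SLC2A1 was at 153 and 182 CPM at 96 h and 99.0 and 109 CPM at 48 h and did not pass (0.69, adjusted p = 0.0555), whereas SLC2A3, a high-affinity relative outside the list, did (1.27 ± 0.28, adjusted p = 0.0208). CA9, the membrane carbonic anhydrase often used to mark hypoxic cells, held 11 and 7 UMIs at 96 h and 0 and 1 at 48 h, a ratio of 31.8 (95% exact interval 5.03 to 1326) that did not pass in the fit (adjusted p = 0.135). Exact intervals of such ratios, here and below, pool the libraries of a time and cover counting error only. EGLN3 and SLC2A3 did not pass when any of the 4 libraries was left out, P4HA1 not without 96 h replicate 2 or 48 h replicate 2, and PGK1 passed only without 48 h replicate 1. Thinned cells held a median of 93 and 92 UMIs of the listed genes at 96 h and 78 and 66 at 48 h. Before 48 h, these medians ran from 107.5 and 106 (0 h) through 105 and 99 (12 h) to 101 and 90 (24 h). Both 48 h libraries thus lay lowest among the times named. Both 96 h libraries stayed below the medians of 0 h and 12 h. The summed list thus did not exceed those earlier levels. The called genes BNIP3, BNIP3L, P4HA1, PGK1 and ENO2 had higher means at 96 h than at 0 h or 12 h. BNIP3L had means of 226 CPM at 96 h, 77.1 CPM at 0 h and 97.2 CPM at 12 h. For BNIP3 they were 255 CPM at 96 h, 211 CPM at 0 h and 133 CPM at 12 h. EGLN3, at a mean of 16.99 CPM at 96 h, lay above 12 h (12.9 CPM) but below 0 h (25.6 CPM).

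The promoters of these genes were read from RefSeq (GRCh38.p14, 250 bases upstream of the start), where 8516 of the tested genes had an entry. The core letters ACGTG of the HIF site, searched on both strands after the values were known, stood in 11 of 28 promoters of the hypoxia list (39.3%) and in 23.9% of all tested promoters. They stood in 4 of the 5 promoters found for the 6 called members, but also in 14 of 42 promoters of the G2/M list (33.3%), in 28.6% of those of genes called lower and in 27.1% of those of genes called higher. BNIP3 is shown since it was the member with the lowest p-value, as the minus strand of chr10:131982022-131982087, with the letters in capitals inside a palindrome that matches on both strands:
BNIP3: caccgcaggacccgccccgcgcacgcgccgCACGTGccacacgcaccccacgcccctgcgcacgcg
A match describes the sequence and is no evidence of binding.

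Some of the listed NF-κB and chemokine genes were called higher. NF-κB is a transcription factor that switches on chemokines and survival genes after stress or cytokines. Of 25 listed genes 19 were tested, and 4 were called higher, 0 lower (SOD2, CXCL5, NFKBIA and CCL2). The median log2 change was 0.88 and 17 of 19 lay above 0. Among all genes tested, 0.803% were called higher and 48.7% lay above 0. The tested members summed to 1120 and 1143 CPM at 96 h and 644 and 572 CPM at 48 h. Earlier sums were 1188 and 1157 CPM at 0 h, 1404 and 1143 CPM at 12 h and 1243 and 1075 CPM at 24 h. The list was thus lowest at 48 h among these times, and its sums at 96 h were near those of 0 h. SOD2, the mitochondrial superoxide dismutase, was at 199.9 and 158 CPM at 96 h and 69.6 and 73.2 CPM at 48 h (1.33 ± 0.20, adjusted p = 0.000886). NFKBIA, the inhibitor that NF-κB induces against itself, was at 199 and 188 CPM at 96 h and 123 and 85.6 CPM at 48 h (0.88 ± 0.17, adjusted p = 0.0069). CXCL5, a neutrophil chemokine, was at 49.8 and 87.2 CPM at 96 h and 25.1 and 28.4 CPM at 48 h (1.38 ± 0.23, adjusted p = 0.00181). It had been lower at 12 h than at 0 h, and without 96 h replicate 2 it did not pass (0.90, adjusted p = 0.195). CCL2, a monocyte chemokine, had a log2 change of 0.81. CCL2 and NFKBIA did not pass without 96 h replicate 1, 96 h replicate 2 or 48 h replicate 2. The p-values come from edgeR's quasi-likelihood test, Benjamini-Hochberg adjusted. CXCL8 (interleukin 8) was at 76.2 and 73.9 CPM at 96 h and 18.4 and 11.9 CPM at 48 h, and CXCL1 at 31.9 and 29.96 CPM at 96 h and 16.1 and 7.74 CPM at 48 h, and neither passed (adjusted p = 0.145 and 0.114). Among 33 secreted factors known from senescent cells, 22 were tested and 4 called higher, 0 lower, 2 of them (CXCL5 and CCL2) shared with the NF-κB list and the others IGFBP3 and STC1. None of the 18 tested interferon genes of 39 was called (median -0.01). Of 28 tested immediate early genes ZFP36, which destabilizes cytokine mRNAs, was called higher (0.83), and 0 were called lower; it passed only without 48 h replicate 1.

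**Figure D3:**
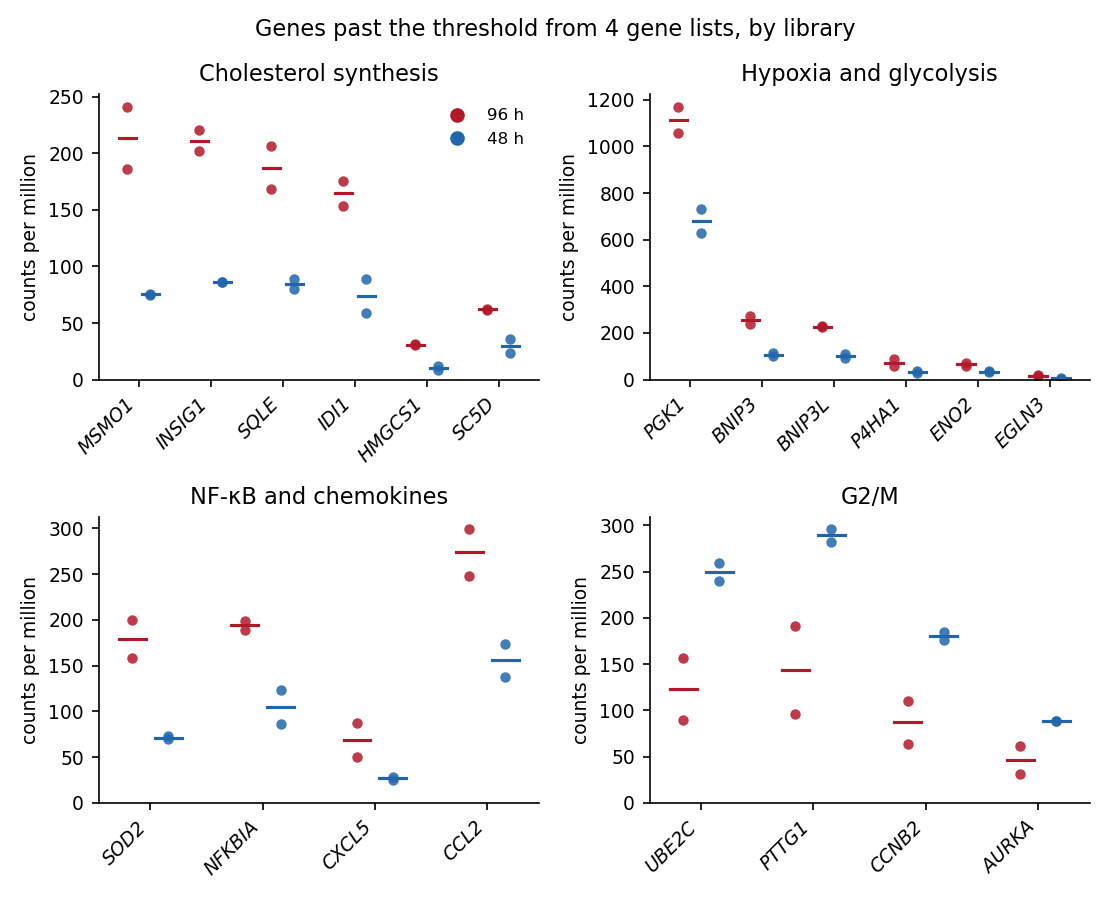
Scaled counts (CPM) of called members of 4 gene lists in the 96 h libraries (red, left) and the 48 h libraries (blue, right); points are libraries and lines are means of 2. In the cholesterol, hypoxia and NF-κB lists each gene's red points lie above its blue points, and in the G2/M list the red points lie below, with 1 of the 96 h libraries lower than the other.

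Few of the G2 and mitosis genes were called, each of them lower at 96 h. All 50 tested members of the 51 listed had a log2 change below 0, where 51.2% of all tested genes did, with a median of -0.49 and a range of -1.20 to -0.08, and 4 were called lower, 0 higher. UBE2C, the ubiquitin-conjugating enzyme of the anaphase-promoting complex, was at 89.5 and 156 CPM at 96 h and 240.1 and 259 CPM at 48 h (log2 change -1.01 ± 0.20, adjusted p = 0.00902). CCNB2 (cyclin B2) was at 63.8 and 111 CPM at 96 h and 176 and 185 CPM at 48 h (-1.03 ± 0.21, adjusted p = 0.0112). PTTG1 (securin), which guards sister chromatids, was at 95.7 and 191 CPM at 96 h and 282 and 296 CPM at 48 h (-1.001 ± 0.24, adjusted p = 0.0478). AURKA, the spindle kinase, had -0.92. With the upper limits on wells dropped AURKA did not pass, while UBE2C, CCNB2 and PTTG1 did. The p-values come from edgeR's quasi-likelihood test, Benjamini-Hochberg adjusted. In each of these genes 96 h replicate 1 was the lower of the 96 h libraries. Without it none of the 4 passed, at log2 changes of -0.68 (UBE2C), -0.71 (CCNB2), -0.60 (PTTG1) and -0.54 (AURKA) and adjusted p-values of 0.236 to 0.401. Without 96 h replicate 2 all 4 passed, and without either 48 h library UBE2C and CCNB2 passed.

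Other members did not pass, although CCNB1 (cyclin B1) did with the upper limits on wells dropped. TOP2A, the topoisomerase of dividing cells, was at 175 and 333 CPM at 96 h and 349 and 456 CPM at 48 h (-0.66, adjusted p = 0.255), and the proliferation antigen MKI67 at 88.7 and 153 CPM at 96 h and 143 and 154 CPM at 48 h (-0.28, adjusted p = 0.710). CDKN3 and NEK2, further genes of dividing cells that were not on the list, were called lower with -0.82 and -1.68 and are named after their values were seen. Genes of G1/S and DNA replication were not called in either direction among 43 tested, with a median of -0.19 and 11 above 0. MCM5, a helicase subunit, was at 59.1 and 41.3 CPM at 96 h and 63.9 and 59.8 CPM at 48 h, while PCNA overlapped between the times at 586 and 493 CPM at 96 h and 468 and 656 CPM at 48 h. Of 28 tested CDK inhibitors and p53 targets 0 were called (median 0.11), and CDKN1A (p21) was at 198 and 190.4 CPM at 96 h and 189 and 124 CPM at 48 h. Of 14 MYC and D cyclin genes 0 were called (median 0.01), with MYC at 85.6 and 85.2 CPM at 96 h and 75.6 and 95.9 CPM at 48 h.

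By cell, the G2/M genes made up a median of 26 and 28 of 10000 UMIs at 96 h, against 37 and 49.5 at 48 h. The 90th percentile of cells was 55 and 85.6 UMIs at 96 h, against 97 and 113.2 at 48 h, and the 10th percentile 8.1 and 8.4 at 96 h and 13 and 24.4 at 48 h. Both ends of the distribution were thus lower in the 96 h libraries. In the wells with under 1000 genes, UBE2C made up 1.61 and 4.08 of 10000 UMIs at 96 h and 1.63 and 1.81 at 48 h, against 0.817 and 1.39 in the kept cells of 96 h and 2.08 and 2.28 in those of 48 h. It was thus not lower at 96 h in those wells, and the part of free RNA was not tested. Genes of G1/S made up medians of 29.5 and 24 at 96 h and 32 and 32.5 at 48 h.

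**Figure D4:**
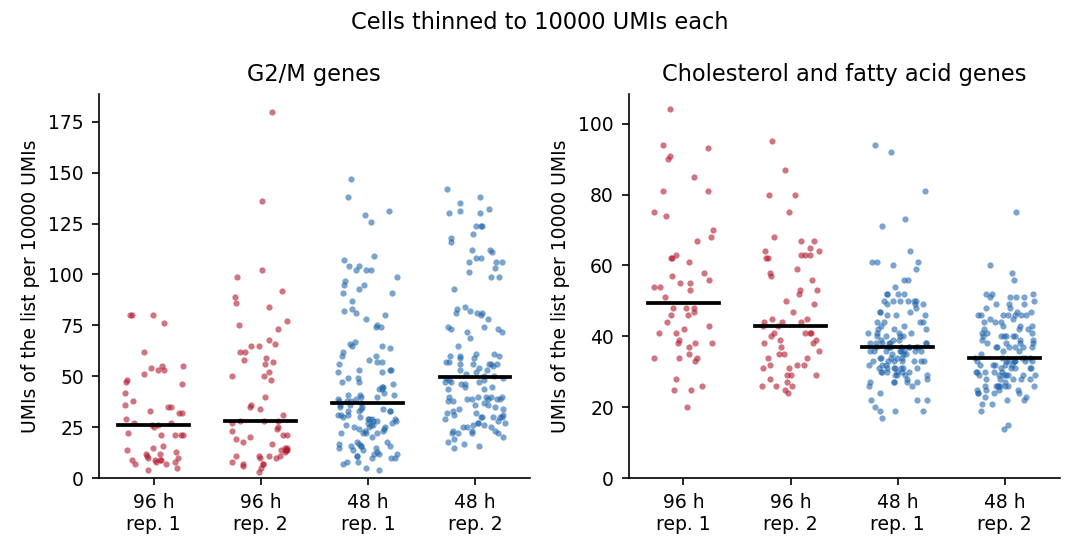
UMIs of the listed G2/M genes (left) and of the cholesterol and fatty acid genes (right) in each cell after thinning to 10000 UMIs, for the 96 h libraries (red) and the 48 h libraries (blue); black lines are medians over cells. The medians are 26 and 28 against 37 and 49.5 for G2/M and 49.5 and 43 against 37 and 34 for the cholesterol and fatty acid genes, and the cells of the times overlap in both panels.

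The letters CCAAT, bound by NF-Y in many promoters of mitotic genes, were searched on both strands of the same upstream windows. They stood in 30 of 42 promoters of tested G2/M genes (71.4%), in 19 of 35 promoters of genes called lower (54.3%), in 23 of 59 of genes called higher (39.0%) and in 35.3% of all tested promoters. The cholesterol list held them in 19 of 28 (67.9%), so they do not set the lower genes apart. CCNB2 and PTTG1 were the called G2/M genes with an entry, and both hold several copies. Shown are chr15:59104896-59105126 for CCNB2 and chr5:160421722-160421841 for PTTG1, each on the plus strand, with CCAAT or its complement ATTGG in capitals:
CCNB2: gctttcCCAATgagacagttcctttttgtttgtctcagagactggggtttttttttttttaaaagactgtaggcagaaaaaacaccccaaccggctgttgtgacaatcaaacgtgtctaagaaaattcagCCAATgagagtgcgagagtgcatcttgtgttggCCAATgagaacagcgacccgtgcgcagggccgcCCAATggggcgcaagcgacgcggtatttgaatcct
PTTG1: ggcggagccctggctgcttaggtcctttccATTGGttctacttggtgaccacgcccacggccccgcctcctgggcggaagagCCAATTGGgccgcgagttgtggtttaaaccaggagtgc
Of the other letters searched, TGANTCA of AP-1 stood in 5 of 59 promoters of higher genes (3.69% of all tested), TNGCGTG of the aryl hydrocarbon receptor in 3 of 59 (6.05%) and TGACNNNGC of NRF2 in 10 of 59 (12.0%). TCACNCCAC of SREBP, searched after the values were known, stood in 0 of the 5 promoters found for the called cholesterol genes (0.798% of all tested). The absence of a match says only that these letters are not in this window.

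No listed target of TGFβ signalling passed the test in this interval. Of 25 listed TGFβ/SMAD targets 24 were tested and 0 were called, with a median log2 change of 0.07 and 14 of 24 above 0. TGFBI, a secreted matrix protein, was at 4539.6 and 4604 CPM at 96 h and 4797 and 3963 CPM at 48 h, and SMAD7, the inhibitory SMAD, at 38.9 and 52.6 CPM at 96 h and 29.8 and 44.4 CPM at 48 h. TGFBI and SMAD7 overlapped between the times, and a missed threshold does not show that they were equal. Of 24 tested receptors, SMADs and ligands 2 were called lower, 0 higher. FST (follistatin), which binds activins, was at 1.56 and 3.33 CPM at 96 h and 14.4 and 19.6 CPM at 48 h (log2 change -2.71 ± 0.52, edgeR's quasi-likelihood test, adjusted p = 0.0069). INHBB, the activin subunit βB, held 0 and 0 UMIs at 96 h and 11 and 9 at 48 h, at least 3.77-fold lower against a floor of 3 counts over the 96 h libraries together. FST did not pass without 96 h replicate 1 or 96 h replicate 2, and INHBB passed only without 48 h replicate 1 among the fits that left out a library. SMAD3 was at 31.9 and 34.0 CPM at 96 h and 55.2 and 46.9 CPM at 48 h and did not pass (adjusted p = 0.142).

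Mesenchymal markers were called in both directions. Of 22 listed markers 12 were tested, 3 were called higher and 1 lower, with a median log2 change of 0.52 and 10 of 12 above 0. Among all genes tested, 0.803% were called higher, 0.411% lower, and 48.7% lay above 0. NT5E (CD73), an ectonucleotidase, was at 167 and 159.8 CPM at 96 h and 85.9 and 60.9 CPM at 48 h (1.14 ± 0.18, adjusted p = 0.000886) and passed without any single library. CDH2 was at 138 and 105 CPM at 96 h and 59.5 and 74.3 CPM at 48 h (0.87 ± 0.21, adjusted p = 0.0364), and the hyaluronan receptor CD44 at 625 and 569.9 CPM at 96 h and 398 and 371 CPM at 48 h (0.63 ± 0.14, adjusted p = 0.0217). Neither passed when any of the 4 libraries was left out, with CDH2 at an adjusted p of up to 0.369 and CD44 of up to 0.248. S100A4, a calcium-binding protein often used as a mesenchymal marker, went the other way, at 80.1 and 126 CPM at 96 h and 179 and 222 CPM at 48 h (-0.94 ± 0.21, adjusted p = 0.0231). It did not pass without 96 h replicate 1 (-0.66, adjusted p = 0.337) or 48 h replicate 2 (-0.79, adjusted p = 0.144). The p-values come from edgeR's quasi-likelihood test, Benjamini-Hochberg adjusted. VIM was at 3911 and 3713 CPM at 96 h and 2368 and 2832 CPM at 48 h and FN1 (fibronectin) at 298 and 282 CPM at 96 h and 209.7 and 164 CPM at 48 h, without overlap and without passing (adjusted p = 0.131 and 0.126). Of 16 tested EMT transcription factors 2 were called higher, 0 lower (median 0.27), namely HMGA2, a chromatin protein (1.08), and ID2, an inhibitor of helix-loop-helix factors (0.90). HMGA2 passed only without 48 h replicate 2, and ID2 in none of the fits that left out a library. SNAI1 was at 33.4 and 40.6 CPM at 96 h and 31.4 and 26.8 CPM at 48 h, and ZEB1 at 14.002 and 21.3 CPM at 96 h and 18.4 and 22.2 CPM at 48 h. ID2 was also the only called member of 15 tested Notch and ID genes (median 0.28).

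Of the 17 tested epithelial markers 1 was called lower, 0 higher, with a median of -0.24. This was JUP (plakoglobin), a linker of desmosomes and adherens junctions, at 61.5 and 65.2 CPM at 96 h and 196 and 102 CPM at 48 h (log2 change -1.25 ± 0.24, edgeR's quasi-likelihood test, adjusted p = 0.0125). JUP had been higher at 12 h than at 0 h, and it passed only without 48 h replicate 2 among the fits that left out a library. CDH1 and EPCAM had ratios of summed UMIs of 5.09 (95% exact interval 1.22 to 45.2) and 5.28 (1.63 to 27.1) in the lower direction and did not pass. These intervals leave out the spread between libraries, and CDH1 held 15 and 3 UMIs in the 48 h libraries. The endothelial junction gene ESAM was called lower (-1.72), after being higher at 12 h than at 0 h, and did not pass without 96 h replicate 1, 96 h replicate 2 or 48 h replicate 1. Of 19 tested genes of the lung and foregut lineage ELF3, an epithelial ETS factor, was called lower (-1.70) and 0 higher. It was at 14.002 and 4.66 CPM at 96 h and 38.1 and 18.6 CPM at 48 h, and did not pass without 96 h replicate 2 or 48 h replicate 1. FOXA2, a factor of foregut endoderm, was at 20.2 and 18.0 CPM at 96 h and 29.8 and 22.2 CPM at 48 h and did not pass.

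Matrix genes were described by class, and the difference between classes was not tested. Beside them, 0.803% of all genes tested were called higher and 0.411% lower. Of 17 tested collagens 0 were called (median 0.12). COL1A1 was at 243 and 198 CPM at 96 h and 395 and 223 CPM at 48 h, COL4A1 at 136 and 141 CPM at 96 h and 123 and 135 CPM at 48 h. COL22A1, which was not on the list and is named after its values were seen, was called higher (1.67). Of 18 tested genes of collagen processing 3 were called higher, 0 lower (median 0.05). PLOD2, a lysyl hydroxylase that prepares collagen for cross-linking, was at 352 and 332 CPM at 96 h and 159 and 161 CPM at 48 h (log2 change 1.10 ± 0.16, adjusted p = 0.000435). P4HA1, the prolyl hydroxylase subunit that is also on the hypoxia list, had 1.09 and the lysyl oxidase LOXL2 0.70. PLOD2 passed without any single library, P4HA1 as given above, and LOXL2 in none of the 4 fits. Of 26 tested glycoproteins and proteoglycans 3 were called higher and 1 lower (median 0.16). THBS1 (thrombospondin 1), which can release TGFβ from its latent complex, was at 545 and 481 CPM at 96 h and 199 and 258 CPM at 48 h (1.17 ± 0.16, adjusted p = 0.00015). The p-values come from edgeR's quasi-likelihood test, Benjamini-Hochberg adjusted. SPOCK1, a testican proteoglycan, was higher with 0.87, and the laminin chain LAMA5 was lower with -0.84. THBS1 passed without any single library, SPOCK1 only without 48 h replicate 1, and LAMA5 in none of the 4 fits. Of 20 tested proteases and inhibitors MMP7 (matrilysin) was called lower, 0 higher (median 0.16), with 1 and 0 UMIs at 96 h and 21 and 15 at 48 h, a ratio of 20.4 (95% exact interval 3.43 to 826). MMP7 passed in none of the fits that left out a library. Its mean was 307 CPM at 0 h, 169 CPM at 12 h and 114 CPM at 24 h. TIMP1, a protease inhibitor, was at 334 and 303 CPM at 96 h and 324 and 239 CPM at 48 h.

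Among 12 tested integrins the median log2 change was 0.42 and 11 of 12 lay above 0, beside 48.7% of all genes tested. ITGA1 and ITGA2, the collagen-binding chains, were called higher (1.08 and 0.84), 0 lower, where 0.803% of all genes were called higher. Neither passed when any of the 4 libraries was left out. ITGB1, their common partner, was at 566 and 766 CPM at 96 h and 564 and 570 CPM at 48 h. None of 34 tested genes of the actin cytoskeleton and focal adhesions was called (median 0.20), nor were caveolins and cavins. ANXA8, an annexin, was the called member of the 16 tested caveolins, cavins and annexins, higher at 18.7 and 21.97 CPM at 96 h and 4.35 and 4.13 CPM at 48 h (2.25), with a list median of -0.03. It passed only without 48 h replicate 2. S100A4 was the only called member of 9 tested S100 proteins (median 0.19). Of 8 tested genes of the cornified envelope and keratinocytes, from 39 listed, LCE3D and LCE3E were the called ones. The other 6 were not called, and they lay on both sides of 0. CNFN (cornifelin) was at 52.1 and 44.6 CPM at 96 h and 76.6 and 48.5 CPM at 48 h, and KRT80 at 24.1 and 29.96 CPM at 96 h and 63.9 and 39.2 CPM at 48 h. KRT6A, a keratin of stressed epidermis, held 0 and 7 UMIs at 96 h and 0 and 0 at 48 h, all of them in 1 library.

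**Figure D5:**
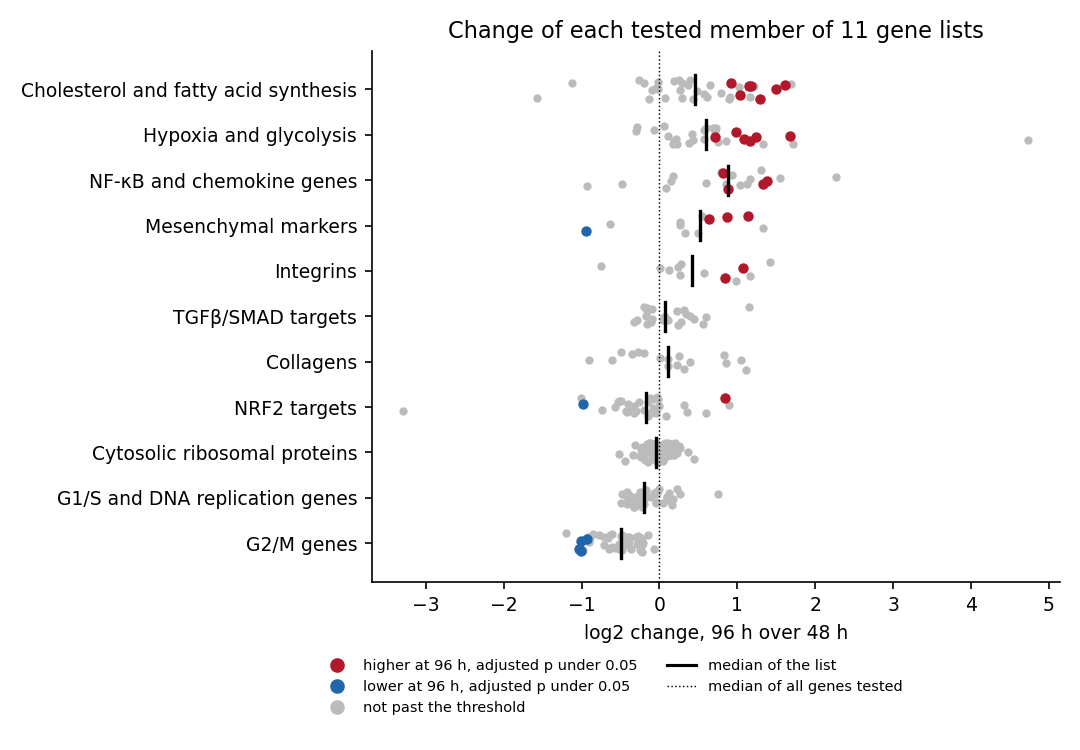
Log2 change between 96 h and 48 h of each tested member of 11 gene lists (1 point per gene, placed at random height within its row); red and blue points passed an adjusted p of 0.05 upward and downward, black bars are list medians and the dotted line is the median of all genes tested, -0.01. The lists of cholesterol synthesis, hypoxia and NF-κB genes have medians of 0.45, 0.60 and 0.88, the TGFβ/SMAD targets 0.07, and the G2/M genes -0.49 with every point below 0.

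Growth factor and morphogen genes held several of the largest falls. DKK1, a secreted WNT antagonist, was at 6.22 and 6.66 CPM at 96 h and 33.8 and 45.9 CPM at 48 h (log2 change -2.60 ± 0.32, edgeR's quasi-likelihood test, adjusted p = 0.000103). The fall went on from earlier times, with means of 474 CPM at 0 h, 141 CPM at 12 h and 190 CPM at 24 h, and it passed without any single library. LGR4, an R-spondin receptor, was the other called member of 24 tested WNT genes (-0.95, 0 higher, median 0.08), and passed only without 48 h replicate 2. On the insulin-like growth factor axis IGFBP3 and STC1 were called among 17 tested genes (median 0.23, 0 lower). STC1 (stanniocalcin 1) was at 146 and 140.5 CPM at 96 h and 53.5 and 55.2 CPM at 48 h (1.40 ± 0.27, edgeR's quasi-likelihood test, adjusted p = 0.0125). Its libraries agreed closely within each time, and it had been higher at 12 h than at 0 h, but with any of the 4 libraries left out its adjusted p was between 0.0511 and 0.113. None of 9 tested genes of the EGF receptor family was called (median -0.03), with EGFR at 271 and 270.3 CPM at 96 h and 191 and 190.3 CPM at 48 h. Of 11 tested ephrins and Eph receptors EPHB1 was called higher (median 0.28, 0 lower), from 4 and 15 UMIs at 96 h and 1 and 0 at 48 h, a ratio of 33.6 (95% exact interval 5.34 to 1396). SEMA3C and PLXNA2, a guidance ligand and a plexin receptor, were called higher among 13 tested neural and muscle genes (0.76 and 2.84, median -0.03). SEMA3C did not pass when any of the 4 libraries was left out. EPHB1 did not pass in the 3 such fits in which it was tested, and was too low to test without 96 h replicate 2. PLXNA2 did not pass without 96 h replicate 2 or 48 h replicate 2.

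Among the NRF2 targets, genes of redox and xenobiotic metabolism, 1 was called lower and 1 higher. AKR1B10, an aldo-keto reductase that is high in A549 cells and other tumors with active NRF2, was at 496 and 569 CPM at 96 h and 1069 and 1036 CPM at 48 h (-0.98 ± 0.15, edgeR's quasi-likelihood test, adjusted p = 0.000886). Its means before were 6942 CPM at 0 h, 2438 CPM at 12 h and 2316 CPM at 24 h. It did not pass without 96 h replicate 1 (-0.89, adjusted p = 0.0638). Of 34 tested NRF2 targets it was the only member called lower, and the transporter ABCC3 the only member called higher (0.84), with a median of -0.17 and 6 of 34 above 0. ABCC3 did not pass when any library was left out. NQO1, a quinone reductase and a common NRF2 readout, was at 1236 and 1159 CPM at 96 h and 1271 and 1154 CPM at 48 h. Of 15 tested retinoid genes TGM2 (tissue transglutaminase), which cross-links matrix proteins, was called higher (median -0.18, 0 lower), at 973 and 1023 CPM at 96 h and 509 and 442 CPM at 48 h (1.07 ± 0.15, edgeR's quasi-likelihood test, adjusted p = 0.000369). TGM2 passed without any single library.

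None of the housekeeping lists held a called gene. Cytosolic ribosomal proteins had 0 of 79 tested genes called (median -0.04), nuclear-encoded respiratory chain genes 0 of 67 (-0.13), the proteasome 0 of 34 (-0.18), lysosome and autophagy genes 0 of 43 (0.15), mitochondrially encoded genes 0 of 13 (-0.17) and metallothioneins 0 of 7 (0.04). Of 15 tested heat shock genes 0 were called, although 14 had a log2 change below 0 (median -0.20). HSPB1 (HSP27) was at 2953 and 2658 CPM at 96 h and 5482 and 3993 CPM at 48 h, just short of the threshold (adjusted p = 0.0730). Of 33 tested genes of endoplasmic reticulum chaperones and the unfolded protein response VLDLR, a lipoprotein receptor, and TRIB3, a pseudokinase of the stress response, were called higher (1.82 and 0.97), 0 lower, with a median of 0.16. HSPA5 (BiP), the main chaperone of the compartment, was at 656 and 601 CPM at 96 h and 707 and 680.3 CPM at 48 h. TRIB3 did not pass when any of the 4 libraries was left out, and VLDLR passed only without 48 h replicate 2.

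Further genes called between the times fell into none of these lists, and not all of them are described here. FBXO32, a ubiquitin ligase of muscle wasting, was among the 15 highest log2 changes of called genes that reached 50 CPM. It was at 54.5 and 45.9 CPM at 96 h and 25.4 and 17.5 CPM at 48 h (log2 change 1.19). Other called genes above 50 CPM were also higher and are left out. Lower at 96 h were APOC1, an apolipoprotein, at 21.8 and 24.6 CPM at 96 h and 47.8 and 70.7 CPM at 48 h (-1.33), and ST3GAL5, the synthase of the ganglioside GM3, at 70.8 and 71.9 CPM at 96 h and 161 and 139 CPM at 48 h (-1.08). GLRX (glutaredoxin), the phosphatase PTPRJ, the lipid droplet protein FITM2, the RNA helicase DDX10, CCDC34 and SNORC were lower by 0.98 to 1.14 in size, with log2 changes of -1.03, -1.14, -1.04, -1.005, -0.98 and -1.14 in that order. Each of these 9 genes lost its call without at least 1 of the 4 libraries. NTS (neurotensin), a peptide, held 2 and 0 UMIs at 96 h and 31 and 22 at 48 h, a ratio of 14.99 (95% exact interval 3.95 to 127), after a rise at 12 h over 0 h.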

How the data were processed

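Single A549 cells were sequenced by CEL-Seq2, and the authors deposited 1 table of UMI counts, with 29035 genes in rows and 4608 wells in columns. Per the labels and the methods, barcodes were handled with UMI-tools, reads trimmed with Trim Galore 0.6.7, aligned to GRCh38 with HISAT2 2.2.1 and assigned with featureCounts 2.0.1. For the trimmer and the counter, the methods state versions that differ from these. Which annotation release was counted, and with which strand setting, is not given in the sources used here. Gene positions were taken from GENCODE 44. The 15871 protein-coding genes were those so classed in the deposited count table. That table classes VEGFA as a polymorphic pseudogene, so VEGFA was outside the protein-coding fit.

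Wells within the limits given above were kept, and their protein-coding counts were summed per library. Wells received sorted single cells, so doublets were not called. Sums ranged from 1264044 UMIs upward among the 48 h and 96 h libraries. All 12 libraries entered 1 fit by time (edgeR 4.0.16 in R 4.3.3, TMM scaling, filterByExpr, quasi-likelihood test, Benjamini-Hochberg threshold 0.05), with 6 residual degrees of freedom and a common biological coefficient of variation of 0.1291. CPM values are these counts scaled to the same total per library.

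Named genes were the 4 markers and key members with up to 4 further members per list by adjusted p. Added were the 15 highest and 15 lowest log2 changes among called genes that did not overlap between the times and reached 50 CPM. Cell type markers and noncoding genes were named apart from this rule. EPAS1, COL22A1, CDKN3 and NEK2 are marked where named. SC5D, ENO2, NTS, AHR, SREBF1, SREBF2 and GFM1 were also named outside the rule. Members and lists were chosen with earlier results of these data known. Alternatives were DESeq2 1.42.0, other scalings, filters, gene types, cell limits, thinning, a fold threshold, a replicate block and each library left out. With a library left out, the remaining one was assumed to vary like the others. Leaving out each gene's highest cell and dropping the upper limits on wells were chosen after seeing the data. Figures and shares were made in Python 3.11.15 with pandas 2.3.3, scipy 1.17.1 and matplotlib 3.10.9. Some called and uncalled genes are not reported here; counts of lists include them.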

Additional observations from a re-analysis of the deposited data

Results flagged for a closer look

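Outside the protein-coding genes, a fit over all gene types tested 1263 further genes and called 3 higher and 1 lower at 96 h than at 48 h by edgeR's quasi-likelihood test (Benjamini-Hochberg adjusted). The long noncoding RNA MIR31HG, the host gene of miR-31, was at 69.2 and 88.5 CPM at 96 h and 29.3 and 31.0 CPM at 48 h, a log2 change of 1.39 (adjusted p = 0.00193). The long noncoding RNA AC078820.3 was at 105 and 128 CPM at 96 h and 67.1 and 70.6 CPM at 48 h, a log2 change of 0.76 (adjusted p = 0.0300). Both are listed since the comparisons above used protein-coding genes alone. The other called genes were the pseudogenes BNIP3P1 (1.97) and MTND5P11 (-1.19), whose counts may share reads with BNIP3 and with MT-ND5.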

How the results depend on the processing

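The count of 127 genes was 258 without the filter on low counts, 40 in a fit of the 48 h and 96 h libraries alone, 29 in cells held to stricter limits (3000 detected genes or more, mitochondrial share up to 20%), 70 with each cell thinned to 10000 UMIs and 13 against a 1.5-fold change. With a library left out it lay between 32 and 94. The deviations of same-numbered libraries from their time means correlated over genes with r = 0.0713 between 48 h and 96 h, with 0.146 to 0.292 between 0 h, 12 h, 24 h and 48 h, and with -0.0952 to 0.292 over all pairs of times. Since not every pair exceeded 0.1, the numbers were not taken as pairs, although libraries in the same fit covary by number. With a replicate block the count was 237, with 125 of the 127 among them. The share called higher, 66.1%, was 80.0% with the 48 h and 96 h libraries alone, 51.4% without 96 h replicate 2 and 51.6% without 48 h replicate 2. The counts by the other alternatives lay between 103 and 162, including DESeq2 with 117. Under the stricter limits, which left 25 and 17 cells at 96 h and 6 and 58 at 48 h, CYP1B1 was at a log2 change of 0.91 (adjusted p = 0.860) and LXN at -2.17 (adjusted p = 0.525), and TRIB3 turned to -0.30 (adjusted p = 0.974). With each cell thinned, LXN was at -1.49 (adjusted p = 0.0591). With a library left out the log2 change of LCE3D lay between 3.84 and 4.84, of IGFBP3 between 1.57 and 2.08, of CYP1B1 between 1.61 and 2.27 and of LXN between -1.98 and -1.61. BNIP3, DKK1, IGFBP3, INSIG1 and LCE3D passed in all 19 alternatives. The causes of these shifts were not tested. The 54 and 64 cells of the 96 h libraries and 2 libraries a side limit what can be called among genes of low counts.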
